A study of Saccharomyces cerevisiae with 61 samples.

Results

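The mitochondrial ribosomal protein genes described here are the 65 yeast genes whose symbol is MRPL, MRPS or RSM followed by a number, or MRP followed by a number, with MRP8 left out. The symbol alone decided which genes belong, but this set was picked with earlier results of these data known. All 65 had 1 probe each among the 6249 features (genes or unnamed probes) of the arrays, and no filter on low values was applied, so every member is accounted for in each count below. By the unified nomenclature of ribosomal proteins, 38 members encode proteins of the large subunit and 26 proteins of the small subunit, and 1, RSM22, encodes a methyltransferase-like factor that is in neither. Of the 64 subunit proteins, 41 have a counterpart in the bacterial ribosome and 23 occur only in mitochondrial ribosomes.

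The mitochondrial ribosome translates the few messages of the mitochondrial genome, which encode core subunits of the respiratory chain and, in yeast, 1 protein of the ribosome itself. Nearly all of its proteins are encoded in the nucleus, made on cytosolic ribosomes and imported, so the nuclear genes and the organelle's own genes must both be expressed for respiration. In yeast, growth on carbon sources that require respiration depends on these genes, while fermenting cells can live without them.

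Total RNA of BY4741 cells (a haploid laboratory strain of Saccharomyces cerevisiae), collected after a synchronising arrest in mating pheromone, was measured on 61 two-colour arrays. Wild-type cells were exposed to MMS (methyl methanesulfonate, a DNA-methylating agent) at 0.033%, to HU (hydroxyurea, an inhibitor of ribonucleotide reductase) at 0.2 M, or to CPT (camptothecin, a topoisomerase I poison) at 50 µM, or were left untreated (UT), and were sampled at 30, 45, 60 and 75 min. Cells deleted for RAD53, which encodes the effector kinase of the DNA damage checkpoint, received MMS, HU or no agent and were sampled at 30 and 75 min. A further set, with the genotype galsicΔP, received no agent: nrm1Δ cells, which lack the repressor of G1/S genes Nrm1, were sampled at 40 and 100 min, and the galsicΔP parent without that deletion at 0, 40 and 100 min. All nrm1Δ and parent cells of this set carried galsicΔP, whose meaning the labels do not spell out. Each group had 2 RNA extracts, except the untreated 0 min samples of wild type and of rad53Δ with 1 each. The labels do not say that the replicates came from separate cultures, so the p-values measure only the spread among these extracts, which may be technical.

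The deposited values are log ratios of both dyes, taken here as base 2, so they carry differences between extracts and no absolute level. Neither the depth of a gene's signal nor the presence of a marker can therefore be read from them, and their precision is limited by the number of arrays. The 61 arrays compared extracts in loops, 36 arrays in wild type, 15 in rad53Δ and 10 in galsicΔP. No array joined wild type with rad53Δ, so the RAD53 deletion itself could not be checked. NRM1 was lower in nrm1Δ on 6 of 6 arrays that set nrm1Δ against the parent, by log2 values of −5.24 to −0.92. Both of these extremes came from arrays that joined different times. On the arrays that joined the same time it stood at −2.73 at 40 min and −4.50 at 100 min. HUG1, a gene that HU induces, was higher in HU on 3 of 4 arrays that joined HU and UT at 1 time, and the array that went the other way was that of replicate 2 at 30 min, at −0.42. The labels of 3 arrays of wild type and rad53Δ disagree between title and sample description, and 6 galsicΔP arrays give 1 genotype for both dyes while their titles name nrm1Δ and parent RNA. The median absolute deviation of the log ratios on an array was 0.163 to 0.558 in wild type, 0.18 to 0.45 in rad53Δ and 0.29 to 1.03 in galsicΔP. Ratios below are log2 values ± SE, positive where the group named first was higher, and a member is said to rise or fall where the adjusted p of limma's moderated test (Benjamini-Hochberg over all 6249 features) was under 0.05.

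Exposure of wild-type cells to MMS split the members: 12 rose and 12 fell, and their median log2 ratio over untreated cells was −0.01. Of all features, 28% rose and 30.2% fell, with a median of −0.02, so the share of members called was below that of the whole array in both directions. The rises were led by MRPS5 and MRPL16, and the falls common to both replicates by MRPL44 and MRPL51. The changes were small, between a 0.726-fold and a 1.33-fold level.

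MRPS5 (YBR251W), the uS5 protein at the mRNA entry side of the small subunit, differed from untreated cells by log2 ratios with a lowest value of 0.27, a median of 0.39 and a highest value of 0.59 over the 8 pairs of extracts matched by replicate and time. All 8 pairs had the higher level in MMS, and the mean was 0.41 ± 0.05 (1.33-fold, adjusted p = 1.12e-07). MRPL16 (YBL038W), the uL16 protein beside the A site of the large subunit, ranged over 0.06, 0.39 and 0.67 (lowest, median, highest) and was also higher in MMS in 8 of 8 pairs, with a mean of 0.36 ± 0.06 (1.29-fold, adjusted p = 2.01e-05). MRPL28 (mL40) averaged 0.32 ± 0.08 and MRP49 (mL61) 0.29 ± 0.08, each higher in 7 of 8 pairs. The other 2 of the 6 largest rises were MRPL35 (mL38) at 0.26 ± 0.07, higher in 8 of 8 pairs, and MRPS28 (uS15) at 0.22 ± 0.08. Neither MRP49 (0.17) nor MRPL35 (0.21) passed without replicate 1, and MRPS28 (0.18) did not without replicate 2. MRPS5 and MRPS28 have bacterial counterparts, whereas MRPL28, MRP49 and MRPL35 are large-subunit proteins found only in mitochondria. The remaining 6 rises lay between 0.14 and 0.22.

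MRPL44 (YMR225C), the mL53 protein found only in mitochondrial large subunits, had log2 ratios of −0.70, −0.58 and −0.07 as its lowest, median and highest value in MMS. None of the 8 pairs had it higher in MMS, and its mean of −0.46 ± 0.09 gave 0.726-fold (adjusted p = 0.000147). MRPL51 (mL43), which is likewise mitochondrion-specific, was lower in MMS in all 8 pairs, at −0.36 ± 0.09 (adjusted p = 0.000848). MRPL37 (mL54) averaged −0.32 ± 0.10 and MRPL15 (mL57) −0.25 ± 0.09, but without the arrays whose labels disagree neither passed, with MRPL37 at −0.10 (adjusted p = 0.624) and MRPL15 at −0.19 (adjusted p = 0.086). The other 2 of the 6 largest falls differed between the replicates. MRP20 (uL23) averaged −0.40 ± 0.12, from −0.77 in replicate 1 and −0.03 in replicate 2. MRPL33 (uL30) averaged −0.26 ± 0.09, from −0.06 in replicate 1 and −0.45 in replicate 2.

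**Figure D1:**
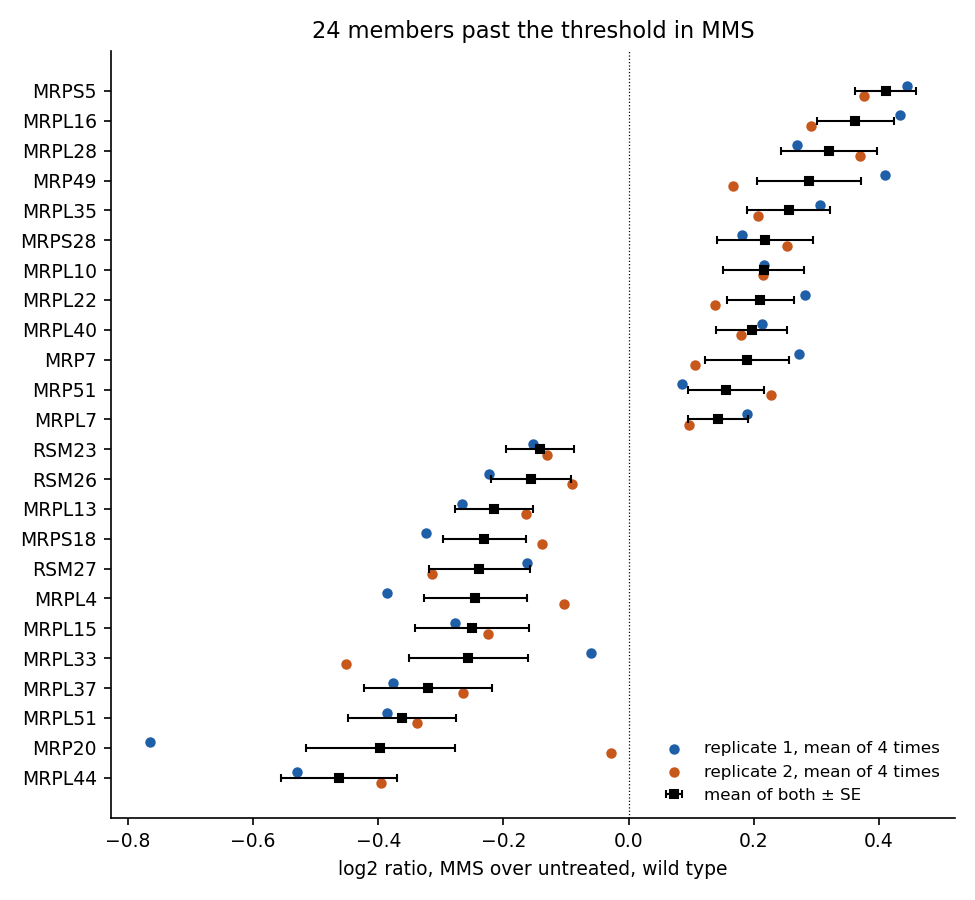
The 24 members past the threshold in wild-type cells with MMS against UT, each with its log2 ratio (black squares, mean of both replicates ± SE) and the mean over the 4 times in replicate 1 (blue) and replicate 2 (orange). The replicate means of MRPS5 (0.44 and 0.38) and MRPL44 (−0.53 and −0.40) lie close together, while those of MRP20 (−0.77 and −0.03) lie far apart.

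Around the exit of the tunnel through which the new chain leaves the large subunit, MRPL22 (uL22) rose by 0.21 ± 0.05 and MRPL40 (uL24) by 0.20 ± 0.06, and MRPL4 (uL29) fell, with a log2 ratio of −0.25 ± 0.08. MRP20 (uL23), also there, passed through replicate 1 alone, and without that replicate it stood at −0.03 (adjusted p = 0.783). MRPL32 (bL32, 0.18 ± 0.09) and MRPL8 (bL17, −0.09 ± 0.07) of the same region did not pass. Of the 38 large-subunit members 9 rose and 8 fell, and of the 26 small-subunit members 3 rose and 4 fell. Of the 41 with a bacterial counterpart 9 rose and 4 fell, and of the 23 found only in mitochondria 3 rose and 8 fell; a difference between these classes was not tested. Each time of a replicate counts here as a separate sample, so the SE and p of means over times can be too small. With 1 value for each replicate and treatment in the fit, 7 members passed: MRPS5, MRPL16, MRPL28, MRP49 and MRPL35 rose, and MRPL44 and MRPL51 fell.

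The rest of the mitochondrial translation system was also divided under MMS. Among 13 mitochondrial ribosomal protein genes with other names, NAM9 (uS4) rose by 0.35 ± 0.07 and SWS2 by 0.22 ± 0.09, and VAR1, the ribosomal protein gene in the mitochondrial genome, fell by 1.4 ± 0.32 on the log2 scale (adjusted p = 0.000531). Of 29 mitochondrial translation factors and activators 8 rose and 11 fell, among them RRF1 (ribosome recycling, 0.34) and MSS51 (COX1 translation, 0.33) upward and CBP1 (COB mRNA stability, −0.50) and IFM1 (initiation factor, −0.40) downward. Of 15 assembly and rRNA factors 2 rose and 8 fell, with the RNA helicase gene SUV3 at −0.89 ± 0.08, and of 16 mitochondrial tRNA synthetase genes 1 rose and 4 fell. Genes for the respiratory chain were lower: 32 of 39 nuclear genes fell and 1 rose (median −0.53), and 6 of 8 protein genes of the mitochondrial genome fell (median −1.20), COX1 by 2.07 and COB by 1.58. Of 81 nucleolar genes for assembly of the cytosolic ribosome 77 fell (median −0.74), and of 129 cytosolic ribosomal protein genes 3 rose and 45 fell (median −0.13). HAP4, the activating subunit of the factor for respiratory genes, stood at −1.25 ± 0.12.

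HU changed few members in wild type: 1 rose and 4 fell, where 15.8% of all features rose and 17.3% fell, and the median member stood at 0.01. MRPL15, a large-subunit protein with a ribonuclease III-like fold (mL57), differed most, with log2 ratios of −0.99, −0.42 and 0.24 as its lowest, median and highest values over 8 pairs. It was lower in HU in 7 of 8 pairs and averaged −0.46 ± 0.09 (0.729-fold, adjusted p = 0.000393), with −0.64 in replicate 1 and −0.27 in replicate 2. The 3 other falls were of small-subunit proteins: MRPS35 (mS45) at −0.30 ± 0.08, and the superoxide dismutase-like pair RSM26 (mS42) at −0.27 ± 0.06 and MRP1 (mS43) at −0.20 ± 0.07. Each of these 3 was higher than in UT in 1 of 8 pairs, by at most 0.06. The 1 rise was that of MRPL40 (uL24), at 0.16 ± 0.06 (adjusted p = 0.0284). The count moved with the replicates, to 1 member without replicate 1 and to 14 (3 rises and 11 falls) without replicate 2. MRPL15 averaged −0.27 without replicate 1 and did not pass, nor did RSM26, MRPS35 and MRPL40. With 1 value for each replicate and treatment only MRPL15 passed (adjusted p = 0.0119).

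Few of the other mitochondrial translation genes passed under HU either. NAM9 rose by 0.18 ± 0.07, and MNP1, which encodes the stalk protein bL12, stood at −0.33 ± 0.08 (adjusted p = 0.00218). Of the 39 nuclear respiratory genes 4 rose and 1 fell (median 0.06), and of the 8 protein genes of the mitochondrial genome none passed by limma, with 1 at an unadjusted p under 0.05. The nucleolar assembly genes, in contrast, fell in 71 of 81 cases (median −0.39).

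CPT moved 2 members past the threshold, where 2.48% of all features rose and 3.54% fell. MRPL11, the uL10 protein at the base of the stalk that binds translation factors, rose by 0.27 ± 0.08 (1.2-fold, adjusted p = 0.0435), but its replicate means were 0.53 and 0.01. MRPL36 (bL31) averaged −0.60 ± 0.16 (adjusted p = 0.0319), from −1.24 in replicate 1 and 0.04 in replicate 2. It is named after its values were seen, because its replicates differed. In replicate 1 it stood at −0.56, −1.23, −1.48 and −1.69 at 30, 45, 60 and 75 min, and in replicate 2 at −0.39, 0.50, −0.26 and 0.32. Replicate 1 lay below replicate 2 at all 4 times. Of the other members none passed by limma, 11 of all 65 were at an unadjusted p under 0.05, and the median was −0.04. Across the 65 members the replicate means of the CPT ratio had a Pearson correlation of −0.02 (0.04 over all features), against 0.48 for MMS (0.85) and 0.22 for HU (0.68); these values describe genes, which are not independent replicates. Leaving out replicate 1 ended both CPT calls (0 members by limma, 1 at an unadjusted p under 0.05), and leaving out replicate 2 gave 24 (3 rises and 21 falls).

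**Figure D2:**
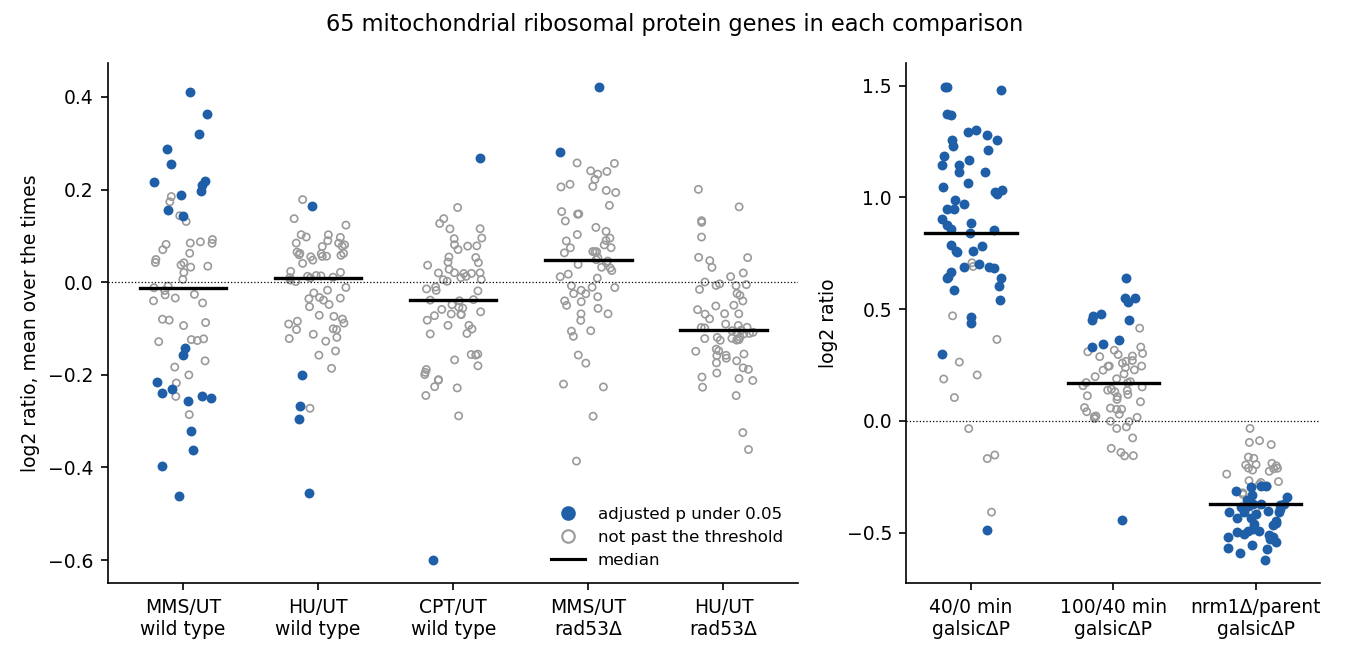
Log2 ratios of the 65 members in each comparison (points, 1 per gene; filled where the adjusted p is under 0.05; black line, median), with agents over UT on the left and the galsicΔP comparisons on a wider axis on the right. Under MMS 12 filled points lie above and 12 below 0, whereas all 40 filled points of nrm1Δ lie below 0.

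MMS and HU were compared with each other directly, since both share their untreated extracts. Relative to HU, 9 members were higher in MMS and 7 lower, against 20.5% and 20.7% of all features, with a member median of 0.03. MRPS5 was higher in MMS by 0.40 ± 0.05, MRPL16 by 0.37 ± 0.06, MRPL10 (uL15) by 0.34 ± 0.06 and MRPL28 by 0.34 ± 0.08. MRP49 (0.22) and MRPS35 (0.21) were the next 2. Against UT, MRPS35 stood at −0.08 in MMS and at −0.30 in HU. Its difference did not pass without the arrays whose labels disagree (0.20, adjusted p = 0.0697). MRPL44 was lower in MMS by a log2 ratio of −0.34 ± 0.09, MRP4 (uS2) of −0.32 ± 0.10 and MRPL51 of −0.32 ± 0.09, followed by RSM27 (−0.20), MRPL19 (−0.19) and MRPS9 (−0.19). The HU ratios over UT of the leading MMS genes were 0.01 ± 0.05 for MRPS5, −0.01 ± 0.06 for MRPL16 and −0.12 ± 0.09 for MRPL44. Without the arrays whose labels disagree, 4 of the 6 named falls did not pass: MRPL51 stood at −0.08, MRPL19 at −0.02, MRP4 at −0.19 and RSM27 at −0.14, while MRPL44 (−0.57) and MRPS9 (−0.23) passed. Without replicate 1 the count was 9 members, and with 1 value for each replicate and treatment it was 4, all of them higher in MMS: MRPS5, MRPL16, MRPL28 and MRPL10.

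Few members had a different ratio late and early in the exposure. Between 75 and 30 min the MMS ratio differed for 1 member, MRPL9, the uL3 protein near the peptidyl transferase centre, where 11.4% of all features had the higher ratio at 75 min and 11.3% the lower. At 30, 45, 60 and 75 min, MRPL9 stood at 0.17, 0.04, −0.18 and −0.35 in replicate 1 and at 0.37, 0.30, 0.23 and −0.20 in replicate 2. Both replicates went from above to below the untreated level, and the difference between 75 and 30 min was −0.54 ± 0.19 (adjusted p = 0.0372). It did not pass without replicate 2 (−0.52, adjusted p = 0.0724) or with each array scaled to the same spread (−0.53, adjusted p = 0.0874). For HU, 0 members differed between 75 and 30 min by limma, with 1 at an unadjusted p under 0.05 and 8.07% of all features called. For CPT, 0 members differed, with 9 at an unadjusted p under 0.05 and 1.42% of all features called. The largest CPT difference was that of MRP20, 1.01 ± 0.34 (adjusted p = 0.161), with values at 30 and 75 min of −0.32 and 0.82 in replicate 1 and of −0.51 and 0.38 in replicate 2. It was 0.88 without replicate 1 and 1.14 without replicate 2, given as sizes only because 1 extract was left at each time. A fit at the level of arrays, without a replicate block, gave 0.84, which passed (adjusted p = 0.0261).

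The members moved together at some times, mainly in replicate 2. At 45 min of replicate 2 their median ratio over the one untreated extract, which all 3 agents share, was 0.23 in MMS, 0.15 in HU and 0.36 in CPT. All 65 members were above 0 in CPT there, 57 in MMS and 59 in HU. At 30 min of replicate 2 the medians were −0.21 in MMS, −0.13 in HU and −0.31 in CPT. In replicate 1 the medians were −0.04, −0.02 and −0.15 at 45 min in the same order of agents, with 13 of 65 members above 0 in CPT. At 30 min of replicate 1 they were 0.14, 0.08 and −0.005. The 2 replicates thus pointed in opposite directions at 30 min for MMS and HU and at 45 min for CPT. At 45 min the MMS and HU medians of replicate 1 lay near those of all features (−0.05 and −0.02). At 75 min the CPT median was −0.29 in replicate 1, with 20 of 65 members above 0, and 0.15 in replicate 2, with 55. Over all features the medians lay between −0.05 and 0.02 at every replicate and time. Without the 45 min extracts of replicate 2, 10 members passed for CPT (1 rise and 9 falls).

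**Figure D3:**
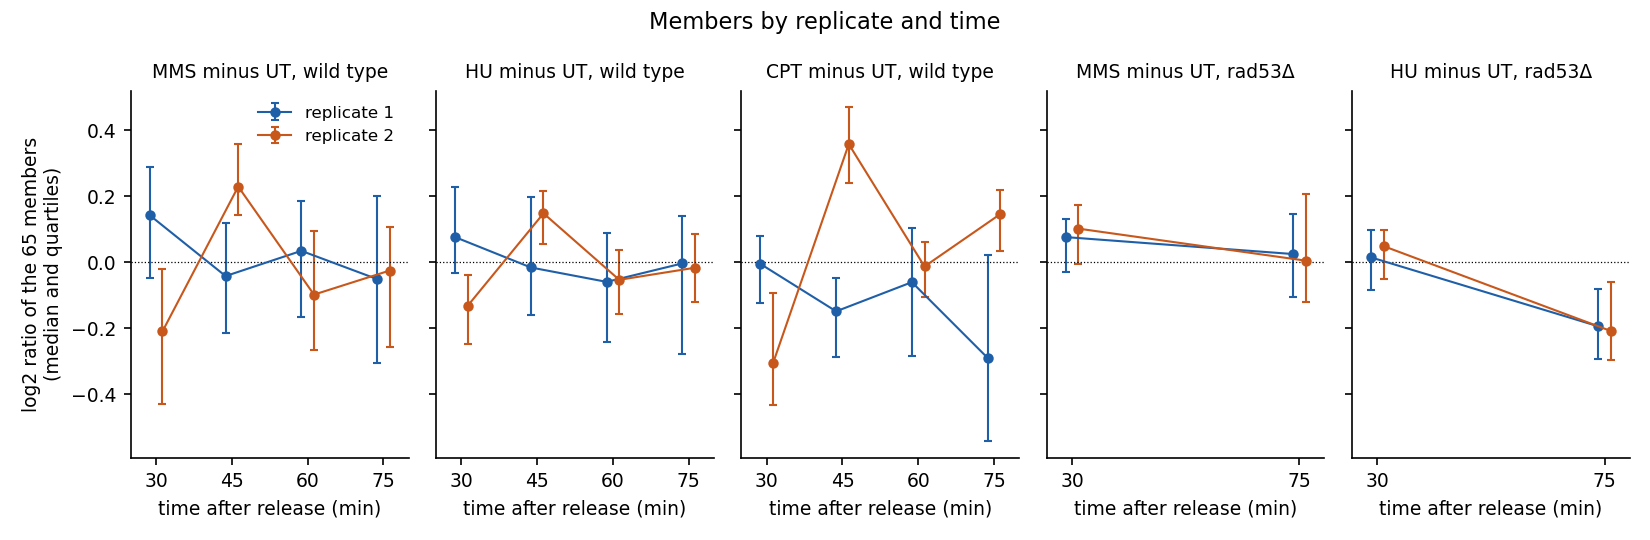
Log2 ratio of agent minus UT against the time after release (min) for the 65 members (points, median; bars, quartiles), in replicate 1 (blue) and replicate 2 (orange), for MMS, HU and CPT in wild type and MMS and HU in rad53Δ. In wild-type replicate 2 the medians lie below 0 at 30 min and above 0 at 45 min for all 3 agents, and in rad53Δ with HU the medians at 75 min are −0.19 and −0.21.

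Only replicate 1 joined its times to the 0 min extract, so the course itself rests on 1 extract for each time and was not tested. In untreated wild-type cells the median member stood at −0.35, −0.14, −0.03 and 0.13 relative to 0 min at 30, 45, 60 and 75 min. At 30 min, 6 of 65 members were above their 0 min level, and at 75 min 39 were. With MMS the 4 medians were −0.18, −0.19, −0.06 and 0.09, with HU −0.20, −0.12, −0.20 and 0.05, and with CPT −0.31, −0.28, −0.17 and −0.10, all against the same 0 min extract. In untreated rad53Δ cells the medians were 0.00 at 30 min and 0.07 at 75 min.

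In rad53Δ cells MMS raised 2 members and lowered 0, where 8.59% of all features rose and 4.78% fell; 10 members were at an unadjusted p under 0.05 and the median was 0.05. MRPL28 stood at 0.38 and 0.57 in replicate 1 and at 0.33 and 0.42 in replicate 2 at 30 and 75 min. All 4 values lay above the untreated level, and the mean was 0.42 ± 0.11 (1.34-fold, adjusted p = 0.00926). MRPS5 stood at 0.05 and 0.45 in replicate 1 and at 0.16 and 0.46 in replicate 2, higher at 75 than at 30 min in both, with a mean of 0.28 ± 0.07 (1.21-fold, adjusted p = 0.00737). MRPL44, the largest fall in wild type, was at −0.26 and −0.39 in replicate 1 and at −0.33 and −0.57 in replicate 2. Its 4 values were all below the untreated level, yet its mean of −0.39 ± 0.13 did not pass (adjusted p = 0.0526), nor did MRPL16 at 0.26 ± 0.09 (adjusted p = 0.0518). Leaving out either rad53Δ replicate left 0 members by limma, with 4 and 2 at an unadjusted p under 0.05, while a fit of the rad53Δ arrays alone gave 19 (13 rises and 6 falls).

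HU in rad53Δ cells brought 0 members past the threshold by limma, with 5 at an unadjusted p under 0.05, where 7.15% of all features were called in either direction. The member median was −0.10, and 53 of 65 members were below 0. The largest value was again that of MRPL15, at −0.38 and −0.36 in replicate 1 and −0.17 and −0.54 in replicate 2 at 30 and 75 min, with a mean of −0.36 ± 0.13 (adjusted p = 0.0875). All 4 of its values lay below UT. By time, the member medians at 30 min were 0.01 and 0.05 in the 2 replicates, and at 75 min −0.19 and −0.21, with 12 of 65 members above 0 in each replicate at 75 min. A fit of the rad53Δ arrays alone gave 8 members.

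The rad53Δ responses were set against the wild-type responses at 30 and 75 min. For MMS, 0 members differed between the strains by limma (3 at an unadjusted p under 0.05), where 7.36% of all features did. The difference of the ratios, rad53Δ minus wild type, was −0.12 ± 0.10 for MRPS5 and 0.13 ± 0.15 for MRPL28, and the largest was that of MRPL36, 0.57 ± 0.33 (adjusted p = 0.362). The nucleolar assembly genes had a higher ratio in rad53Δ in 49 of 81 cases, with a median difference of 0.59, against 0.09 for the members. For HU, 0 members differed by limma (2 at an unadjusted p under 0.05), where 2.8% of all features did. MRPL32 (bL32), with −0.33 ± 0.18, and MRPL25 (mL59), with 0.27 ± 0.14, had the largest differences. Across the 65 members the mean ratios of rad53Δ and wild type had a correlation of 0.72 for MMS (0.73 over all features) and of 0.15 for HU (0.45), as a description across genes; the 2 strains share no extracts. A p that misses the threshold does not show that the strains responded alike, and the median SE of a member's difference was 0.158.

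The largest changes of the members came in the galsicΔP parent after 0 min. At 40 min 52 of 65 were higher than at 0 min and 1 was lower, against 28.8% and 28.5% of all features. Their median log2 ratio was 0.84, and that of all features −0.02. Both extracts of 0 min were in the first hybridisation loop, so comparisons with 0 min rest on 1 directly joined parent extract at each later time, taken to vary like the other groups. Of the large-subunit members 33 of 38 rose and 1 fell, and of the small-subunit members 18 of 26 rose.

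MRPL19, the uL11 protein at the stalk base, stood at 1.49 in the 40 min extract of the first hybridisation loop, against −0.16 and 0.16 in the 2 extracts of 0 min, on a log2 scale set to 0 at the mean of 0 min. Its fitted difference was 1.50 ± 0.16 (2.82-fold, adjusted p = 1.44e-08). RSM26 (1.49 ± 0.14) and MRPS8, the uS8 protein of the small-subunit body (1.48 ± 0.18), followed, and then MRPL7 (uL5, 1.37 ± 0.10), MRPL9 (1.37 ± 0.14) and MRPL37 (1.30 ± 0.22). A named rise had to lie above both 0 min extracts, and the same 40 min extract served in both differences. MRPL28 was the 1 fall: it stood at −0.54 at 40 min, against −0.18 and 0.18 at 0 min, and its difference was −0.49 ± 0.16 (0.713-fold, adjusted p = 0.0128). MRPL33, MRP20, MRPS16 and RSM10 also lay below 0, between −0.41 and −0.03, without passing. The 2 extracts of 0 min differed from each other, with member medians of −0.16 and 0.16, and 62 of 65 members were higher in the second.

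Genes of mitochondrial translation rose beside the members at 40 min. Of the 13 mitochondrial ribosomal protein genes with other names 11 rose, MNP1 by 1.67 ± 0.17 and IMG1 by 1.35 ± 0.22. Of the 29 translation factors 17 rose and 4 fell, led by TUF1, the mitochondrial elongation factor Tu, at 2.16 ± 0.15, and of the 16 tRNA synthetase genes 9 rose and 1 fell. Protein import genes rose in 25 of 31 cases, nuclear respiratory genes rose in 33 of 39 (median 1.25), and HAP4 rose by 2.18 ± 0.25. The 8 protein genes of the mitochondrial genome went the other way: 6 fell and the median was −1.32. Cytosolic ribosomal protein genes rose in 126 of 129 cases by a median of 4.10, and the 6 galactose genes all rose, by a median of 6.76; the part of these changes in the members' result was not tested. With each array scaled to the same spread, 6 members passed at 40 min, all of them higher, and the member median was 0.28, with MRPL28 at −0.20 (adjusted p = 0.593). The share of rises among all calls then became 63.2%, against 50.3% without scaling.

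**Figure D4:**
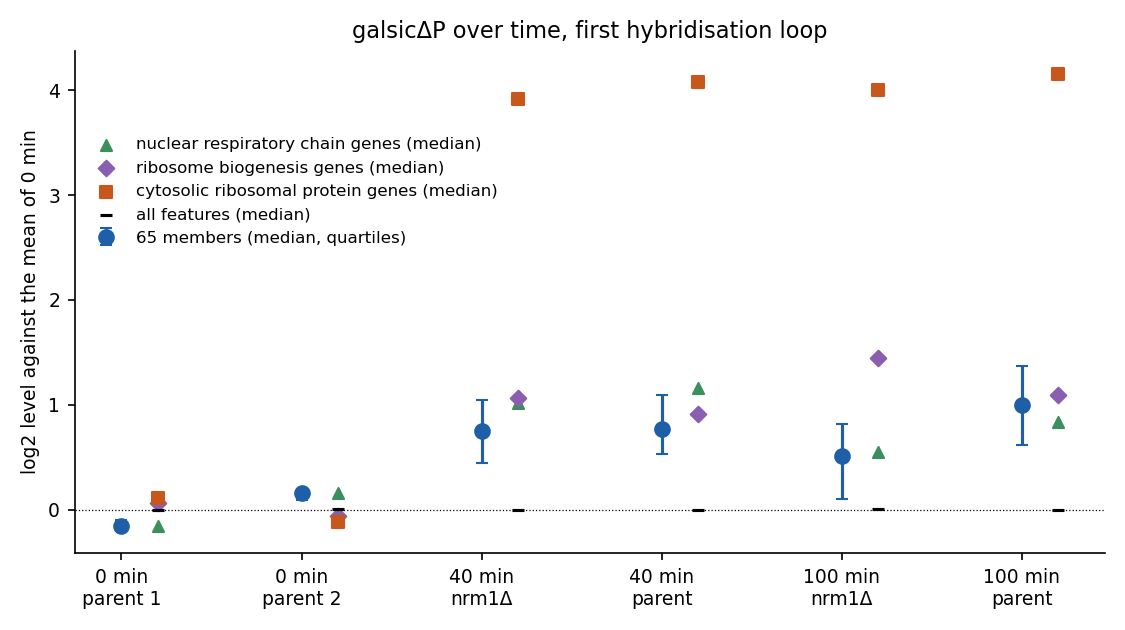
Log2 level relative to the mean of the 2 extracts of 0 min (y) in the 6 extracts of the first hybridisation loop, with blue points for the 65 members (median and quartiles) and other symbols for the medians of comparison groups and of all features. The member medians are −0.16 and 0.16 at 0 min, 0.75 in nrm1Δ and 0.77 in the parent at 40 min, and 0.51 in nrm1Δ and 1.0 in the parent at 100 min.

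Most members were still above their 0 min level at 100 min. At 100 min the parent had 55 members higher and 1 lower than at 0 min (33.7% and 33% of all features; this comparison was added after the data were seen), with a median of 1.04. MRPS8 led at 1.95 ± 0.18 (3.86-fold), followed by MRPL11 at 1.81 ± 0.17 and MRPL7 at 1.70 ± 0.10. MRPS16, the bS16 protein, was the 1 member lower, at −0.60 ± 0.15. With each array scaled to the same spread 45 members were higher and 0 lower, the median was 0.52, and MRPS16 stood at −0.25 (adjusted p = 0.209).

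Between 100 and 40 min 11 members rose and 1 fell in the parent, against 13.5% and 14.4% of all features, with a median of 0.17. MRPL44 was higher at 100 min by 0.58 in the first loop and 0.69 in the second, and averaged 0.64 ± 0.19 (1.56-fold, adjusted p = 0.0111). MRPS17 (uS17, 0.55 ± 0.20), MRPL11 (0.55 ± 0.16), MRPL35 (0.53 ± 0.13), MRPL3 (mL44, with a ribonuclease III-like fold, 0.48 ± 0.12) and MRPS8 (0.47 ± 0.17) rose too. MRPS16 fell by 0.46 in the first loop and by 0.43 in the second, with a mean of −0.44 ± 0.14 (adjusted p = 0.0182). These 7 genes were named only where both loops had 1 sign, so their shared direction was fixed by that choice. MNP1 rose beside them by 0.63 ± 0.16, and 9 of the 39 nuclear respiratory genes fell while 0 rose (14 of the list at an unadjusted p under 0.05; median −0.27). Without the first loop 0 members passed by limma (9 at an unadjusted p under 0.05), and without the second 1 did. With scaled arrays MRPL44 (adjusted p = 0.0732), MRPS17 (0.0713), MRPS8 (0.0829) and MRPS16 (0.125) did not pass. In a fit of the galsicΔP arrays alone MRPS17 (adjusted p = 0.0978) and MRPS16 (adjusted p = 0.0643) did not.

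The members were lower as a body in nrm1Δ cells. Over 40 and 100 min 40 of 65 were lower in nrm1Δ than in the parent and 0 were higher, where 17.2% of all features were lower and 14.5% higher, and 49 members were at an unadjusted p under 0.05. All 65 members had a negative log2 ratio, with a median of −0.37, against −0.02 over all features. Of the 65, 64 were below 0 in both hybridisation loops, the exception being RSM22 at 0.08 in the first.

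The largest fall was that of MRPL13 (YKR006C), the mL50 protein found only in mitochondrial large subunits. Its nrm1Δ level minus that of the parent was −0.37 and −0.80 at 40 and 100 min in the first loop and −0.43 and −0.88 in the second. Both loops had the larger fall at 100 min, and the mean was −0.62 ± 0.09 (0.65-fold, adjusted p = 9.66e-06). MRPL1, the uL1 protein of the stalk beside the exiting tRNA, stood at −0.40 and −0.69 in the first loop and −0.60 and −0.54 in the second, without such an order, and averaged −0.56 ± 0.07 (0.679-fold, adjusted p = 1.51e-06). RSM10 (uS10, −0.59 ± 0.11), RSM25 (mS23, −0.57 ± 0.11), MRPS9 (uS9, whose tail reaches the decoding site, −0.57 ± 0.08) and MRPL38 (uL14, at the subunit interface, −0.54 ± 0.09) completed the 6 largest falls.

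Both subunits and both classes took part. Of the large-subunit members 27 of 38 fell and of the small-subunit members 13 of 26, with medians of −0.38 and −0.33. Of the members with a bacterial counterpart 26 of 41 fell, and of those found only in mitochondria 14 of 23. Of the tunnel-exit proteins MRPL22 (−0.34), MRPL40 (−0.33) and MRPL4 (−0.47) fell, and MRP20 stood at −0.37 ± 0.17 without passing. The values nearest 0 were those of RSM22 (−0.03 ± 0.11), RSM27 (−0.09 ± 0.11), MRPL15 (−0.10 ± 0.13) and MRPL16 (−0.11 ± 0.09), none of which passed.

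The difference lay mostly at 100 min, in comparisons added after the data were seen. At 100 min 42 members were lower in nrm1Δ and 0 higher, where 6.64% of all features were lower and 3.3% higher, and 58 were at an unadjusted p under 0.05. The member median was −0.57, and all 65 were below 0 in both loops. MRPL3 differed most: it stood at −1.01 in the first loop and −0.73 in the second, and averaged −0.87 ± 0.12 (0.546-fold). MRPL13 (−0.84 ± 0.12), MRPL32 (bL32, −0.84 ± 0.18), MRPS9 (−0.81 ± 0.11), MRPS8 (−0.78 ± 0.17) and MRPL49 (bL21, −0.77 ± 0.19) came next, and MRPL16, at −0.24, was nearest to 0. MRPL49 did not pass in a fit of the galsicΔP arrays alone (adjusted p = 0.0504). It stood at −0.87 without the first loop and at −0.66 without the second. At 40 min 7 members were lower and 0 higher (13.3% and 11.3% of all features), 12 were at an unadjusted p under 0.05 and the median was −0.17. At 100 min 14 members passed in a fit of the galsicΔP arrays alone, 17 with scaled arrays, 12 without the first loop and 10 without the second, all of them lower. At 40 min these settings gave 2, 0 (1 at an unadjusted p under 0.05), 4 and 0 (4 at an unadjusted p under 0.05). By loop, the median was −0.07 at 40 min and −0.52 at 100 min in the first, and −0.26 at 40 min and −0.57 at 100 min in the second.

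The difference between the times was itself tested. The nrm1Δ ratio was lower at 100 than at 40 min for 3 members and higher for 0, where 0.992% of all features were lower and 1.78% higher, and 23 members were at an unadjusted p under 0.05. All 65 members had the lower ratio at 100 min, with a median difference of −0.38. MRPL3 stood at 0.02 and −1.01 at 40 and 100 min in the first loop and at −0.20 and −0.73 in the second, with a difference of −0.78 ± 0.17 (adjusted p = 0.00868). MRP13 (mS44), at 0.21 and −0.58 in the first loop and 0.05 and −0.53 in the second, was above the parent at 40 min and below it at 100 min in both, with a difference of −0.68 ± 0.17 (adjusted p = 0.0213). RSM24 (mS35) differed by −0.60 ± 0.17 (adjusted p = 0.049). With either loop left out 0 members passed here by limma, with 4 and 12 at an unadjusted p under 0.05. A fit of the galsicΔP arrays alone also gave 0 (24 unadjusted), with adjusted p = 0.238 for MRPL3, 0.213 for MRP13 and 0.436 for RSM24. With scaled arrays 1 member passed, and MRP13 and RSM24 did not (adjusted p = 0.1 each).

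**Figure D5:**
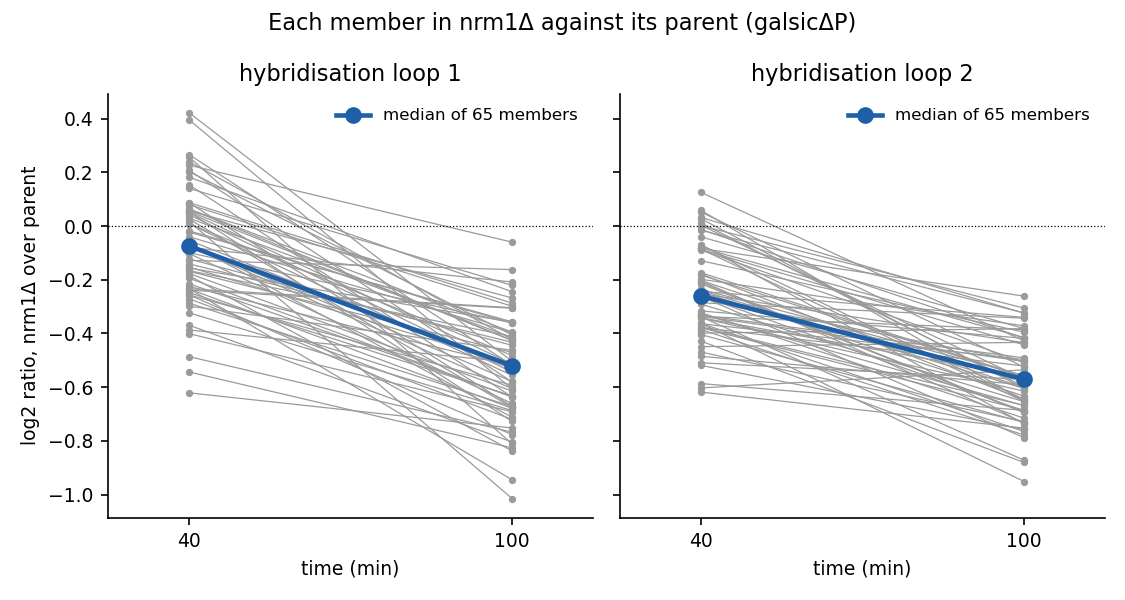
Log2 ratio of nrm1Δ over its parent at 40 and 100 min for each of the 65 members (thin lines) and their median (blue), in the first (left) and second (right) hybridisation loop. The median falls to −0.52 at 100 min in the first loop, against −0.07 at 40 min, and to −0.57 at 100 min in the second loop, against −0.26 at 40 min.

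Beside the members in nrm1Δ, 7 of the 13 other-named mitochondrial ribosomal protein genes fell (median −0.39), among them RML2 (uL2, −0.57 ± 0.13) and IMG1 (−0.49 ± 0.15). Of the 29 translation factors 15 fell, led by MEF1 (elongation factor G, −0.94 ± 0.10) and PET122 (COX3 translation, −0.75 ± 0.16), and of the 16 tRNA synthetase genes 8 fell. Import genes fell in 16 of 31 cases (median −0.38) and nuclear respiratory genes in 16 of 39 (median −0.31). PUF3, whose product binds messages of mitochondrial proteins including ribosomal ones, fell by 1.36 ± 0.21 on the log2 scale. Of the 129 cytosolic ribosomal protein genes 2 fell (median −0.06), and of the 81 nucleolar assembly genes 31 rose and 0 fell (42 of that list at an unadjusted p under 0.05; median 0.28). The 6 galactose genes were also lower in nrm1Δ, all 6 by the test, with a median of −0.93. By loop, the galactose median was −1.50 and −1.61 at 40 and 100 min in the first and −0.57 and −0.12 in the second, while the member median at 100 min was −0.52 in the first and −0.57 in the second. The part of the galactose genes' difference in the members' result was not tested.

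The count in nrm1Δ was 25 members without the first loop and 16 without the second, and within a loop the parent extracts carried another replicate number than those of nrm1Δ. With each array scaled to the same spread 8 members passed, the median was −0.26, and the share of rises among all calls was 29.9%, against 45.8% without scaling.

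Over the 14 comparisons fixed with the design, 5 members passed in none: MRP10 (mS37), MRPS12 (uS12, at the decoding centre), RSM18 (bS18), RSM19 (uS19) and RSM7 (uS7). That is 7.69% of the members, against 10.3% of all features. MRPS12 and RSM19 lie next to each other on the chromosome in the R64 assembly. MRPS5, MRPL28 and MRPL35 passed in 5 comparisons each, the highest number among the members; 4.62% of members and 24.8% of all features passed in 5 or more. Many of these comparisons share extracts.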

How the data were processed

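Labelled RNA of 61 pairs of extracts was measured on two-colour arrays on 16 slides. The deposited values are log2 ratios of Cy5 over Cy3 (the base is not stated and was taken as 2); limma was used by the authors per the submitters' processing notes, and how background was corrected or arrays were normalised is not given in the sources used here. Probes of 1 symbol were averaged, 5609 of 6266 probes had a symbol, and array medians lay between −0.03 and 0.02. From the ratios, the level of each of 56 extracts was estimated by least squares within its strain set, with a dye term. For 54 extracts, limma 3.58.1 (R 4.3.3) then fitted groups with 14 hybridisation blocks (replicate and time, or loop in galsicΔP) and 1 spread per feature over all strain sets (20 residual degrees of freedom). Figures used matplotlib 3.10.9.

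The replicate block is part of this fit because replicate 2 was hybridised time by time, so its extracts compare only within a time. Named are, in each comparison, the 6 largest rises and 6 largest falls past the threshold with 1 sign in both replicates, members chosen by role, the extremes where few passed, and up to 4 genes of each other list. The members and lists were chosen with earlier results of these data known. The steps were tested on simulated data. Alternatives left out replicates or loops, disagreeing labels, the dye term or the block, fitted a strain set alone, scaled arrays, or used 1 value per replicate.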

Additional observations from a re-analysis of the deposited data

Results flagged for a closer look

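Among the members, 4 had a response that differed between times by the test of the difference itself. MRPL9, the uL3 protein, had an MMS ratio that was lower at 75 than at 30 min in wild type by a log2 value of −0.54 ± 0.19, in both replicates; it did not pass without replicate 2 or with scaled arrays. In the galsicΔP set the ratio of nrm1Δ over its parent was lower at 100 than at 40 min for MRPL3 by −0.78 ± 0.17, for MRP13 by −0.68 ± 0.17 and for RSM24 by −0.60 ± 0.17, in both loops, in a comparison added after the data were seen. None of these 3 passed with either loop left out or in a fit of the galsicΔP arrays alone, and MRP13 and RSM24 did not with scaled arrays. Genes named here had to have 1 sign in both replicates or loops, so that agreement was fixed by the choice. No group had enough extracts for a test of single outlying samples.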

How the results depend on the processing

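Each count of members past the threshold was recomputed under the alternatives, and 80 of 140 such counts stayed within 1.5 times the reported one; of 686 values of named members 533 kept their direction and their side of the threshold, 144 lost the threshold, 8 gained it and 1 reversed. That one was MRPL49 for CPT at 75 against 30 min, at −0.36 and without wild-type replicate 1 at 0.091 (range −0.82 to 0.091 over the replicates left out). The fit at the level of arrays has no replicate block and no extract step: it gave 59 members for nrm1Δ against its parent, 9 for MMS and 4 for HU in rad53Δ, 3 for HU and 0 for CPT in wild type (2 at an unadjusted p under 0.05), 7 for MMS and 2 for CPT at 75 against 30 min, and 1 for the MMS difference between strains. With a dye term for each slide as well it gave 8 for MMS in rad53Δ, 3 for HU and 0 for CPT in wild type (4 unadjusted). The cause of these changes was not tested. Each count refitted without a dye term was as reported; nearly every extract had carried both dyes equally often.

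With 1 value per replicate and treatment, 7 members passed for MMS, 1 for HU, 0 for CPT (2 unadjusted) and 4 for MMS against HU in wild type. A fit of the strain set alone gave 19 for MMS and 8 for HU in rad53Δ, 0 for CPT (7 unadjusted) 7 at 100 against 40 min in the galsicΔP parent, and 0 for the nrm1Δ difference between times (24 unadjusted). Scaling the arrays to equal spread gave 6 at 40 against 0 min, 5 at 100 against 40 min, 8 for nrm1Δ, 1 for CPT, 2 for MMS at 75 against 30 min, MRPL9 not among them, and 1 for the nrm1Δ difference between times. Without the arrays whose labels disagree, 8 passed for HU and 0 for CPT (9 unadjusted), and without the 45 min extracts of wild-type replicate 2, 10 for CPT. Leaving out one replicate or loop at a time gave 16 to 25 for nrm1Δ, 0 to 1 at 100 against 40 min, 18 to 24 for MMS, 1 to 14 for HU, 0 to 24 for CPT and 9 to 16 for MMS against HU. It gave 0 in each case for MMS in rad53Δ, 0 to 1 for the HU and 0 to 3 for the MMS difference between strains, and, at 75 against 30 min, 3 for MMS, 3 for CPT and 0 to 2 for HU. With 2 replicates a group, each lone extract was taken to vary like the other groups.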
